A study of Mus musculus with 22 samples.

Results

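The comparison of BIX01294 with DZNep rests on 8 of the 22 DamID samples of the series, which pair into 4 of its 11 lists of lamina-associated domains (LADs). The labels define the lists: each drug has 1 list from the embryo labelled pup1.8 (replicate 1) and 1 from the embryo labelled pupx17 (replicate 2). All 4 came from primary mouse embryonic fibroblasts (MEFs) of the C57bl/6 background, isolated at e13.5 and kept for at most 5 passages. The cells received BIX01294 or DZNep for 18 to 24 h before the DamID virus was added, and were harvested at 60 h. The labels give no dose of either drug and no vehicle-treated cells, so the reference used here is untreated MEFs (WT) of the same embryos. The labels give no harvest time for WT and leave the starting point of the 60 h unstated. MEFs given TSA, a histone deacetylase inhibitor, on the schedule of the other drugs serve as a further reference. Each list came from 1 library of Dam fused to lamin B1 and 1 of unfused Dam, and replicates were not pooled. The embryo is the replicate, so every difference below was taken within a pup and rests on 2 pups. The drug names can then be exchanged in 4 ways, and no exact permutation test can give a two-sided p below 0.5.

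DamID marks the DNA that meets the nuclear lamina, the protein layer under the nuclear envelope. A Dam methyltransferase fused to lamin B1 (Dam-LmnB1) methylates nearby DNA in living cells, and unfused Dam corrects for how open the chromatin is. LADs are long, mostly silent stretches of chromatin that carry histone H3 methylated on lysine 9, while methylation on lysine 27 is known to flank many of them. BIX01294 inhibits G9a, the enzyme that places the dimethyl mark on lysine 9. DZNep inhibits S-adenosylhomocysteine hydrolase and depletes EZH2, the enzyme that methylates lysine 27, although its effect reaches other methylation as well. Setting the drugs against each other asks whether lowering either system leaves a different LAD map. Neither mark was measured here, and the lists carry no check that the drugs acted.

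A LAD below is an interval on chromosomes 1 to 19 that is longer than 100 kb after intervals less than 25 kb apart were joined. The lists hold a start and an end for each interval and no signal, so the depth is unknown and a difference in coverage cannot be told apart from a difference in how readily each library was called. Positions are in the mouse build mm9, counted from 1. No gene is named, since no gene positions of that build were used here.

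Both drugs left nearly the same LAD map, and the BIX01294 map was the longer in both pups. BIX01294 LADs summed to 1481 Mb in pup1.8 and 1536 Mb in pupx17. DZNep LADs summed to 1440 Mb in pup1.8 and 1457 Mb in pupx17. The BIX01294 values lay above both DZNep values, with means of 1508 ± 39.0 Mb for BIX01294 and 1448 ± 12.3 Mb for DZNep (SD, n = 2 each). The difference was 41.1 Mb in pup1.8 and 78.9 Mb in pupx17, a mean of 60.0 ± 26.7 Mb (SD, n = 2 pups; two-sided exact permutation within pups, p = 0.5, the smallest this design allows). WT lists of the same pups held 1507 Mb in pup1.8 and 1429 Mb in pupx17, so both drug lists were shorter than WT in pup1.8 and longer than WT in pupx17. The untreated lists of the pups thus differed by more than the drugs did in pup1.8, and by slightly less than the drugs did in pupx17.

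LAD number did not separate the drugs at the 100 kb limit. The BIX01294 lists held 2154 LADs in pup1.8 and 2139 LADs in pupx17, and the DZNep lists held 2132 LADs and 2239 LADs. The difference was 22 LADs in pup1.8 and -100 LADs in pupx17, opposite in sign (exact permutation within pups, p = 1). This depends on the limit. As deposited, the BIX01294 lists held more intervals in both pups, 6987 and 8883 (pup1.8 and pupx17) against 6783 and 8686 under DZNep. BIX01294 also had more LADs of 500 to 1000 kb and of 1000 kb or more in both pups. The median LAD was longer under BIX01294, at 381 kb in pup1.8 and 359 kb in pupx17, against 354 kb and 320 kb under DZNep. The difference in medians was 27.1 kb in pup1.8 and 38.4 kb in pupx17, a mean of 32.8 ± 7.96 kb (SD, n = 2 pups; exact permutation within pups, p = 0.5). The lower BIX01294 median lay just above the higher DZNep median, so the groups did not overlap. The direction of the median depends on the processing. With the lists as deposited, neither joined nor limited, the mean difference was 1.66 kb, with opposite signs in the pups. The deposited medians were 59.0 kb for BIX01294 and 53.7 kb for DZNep in pup1.8, and 37.1 kb and 39.0 kb in pupx17. With LADs over 500 kb alone the mean difference was -37.8 kb.

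The classes of LAD length divided differently under the drugs. LADs of 1000 kb or more covered 839 Mb under both drugs in pup1.8, but 923 Mb under BIX01294 and 837 Mb under DZNep in pupx17. LADs of 500 to 1000 kb covered 328 Mb and 306 Mb under BIX01294 (pup1.8 and pupx17), against 273 Mb and 280 Mb under DZNep. For LADs of 100 to 250 kb the order was turned, with 126 Mb and 132 Mb under BIX01294 and 134 Mb and 148 Mb under DZNep. LADs of 250 to 500 kb also held less under BIX01294, with 187 Mb and 175 Mb against 195 Mb and 191 Mb. In both pups the classes under 500 kb thus held less sequence under BIX01294, and the class of 500 to 1000 kb held more. A LAD changes class when it merges or splits, so these totals do not place the differing bases.

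**Figure D1:**
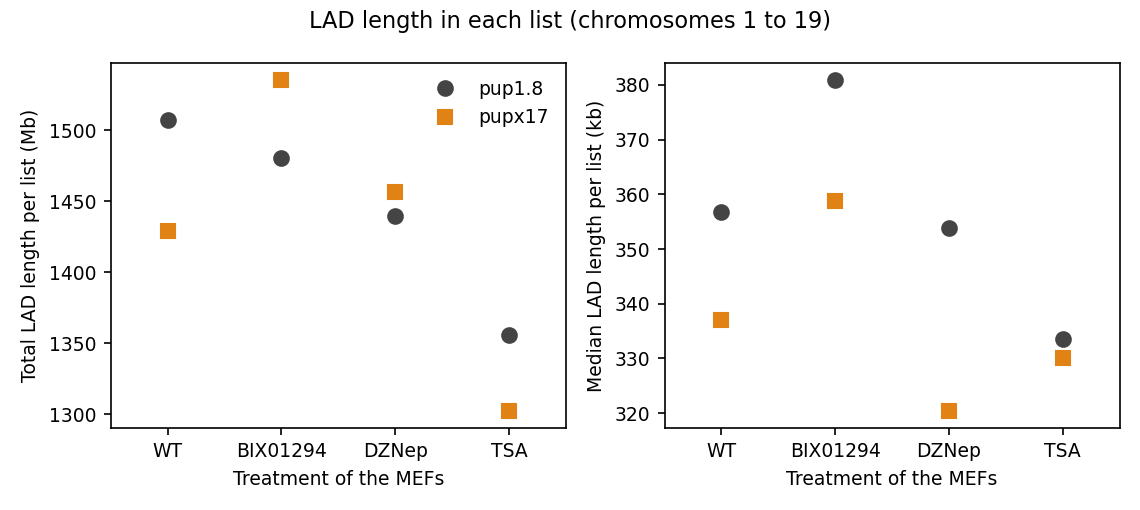
Total LAD length (left, Mb) and median LAD length (right, kb) of each list, with circles for pup1.8 and squares for pupx17; the axes do not start at 0. BIX01294 lies above DZNep in each pup on both panels, and the TSA lists, at 1356 Mb and 1302 Mb, are the shortest of the 8 shown.

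Most LAD bases of either drug were shared. In pup1.8 the BIX01294 and DZNep lists had 1374 Mb in common, which was 92.8% of the BIX01294 bases and 95.5% of the DZNep bases. In pupx17 they shared 91.6% of the BIX01294 bases and 96.6% of the DZNep bases. The Jaccard index, the bases in both lists divided by the bases in either, was 0.889 in pup1.8 and 0.887 in pupx17 (0.888 ± 0.00127, SD, n = 2 pups). The lists of 1 drug in the 2 pups were slightly less alike, at 0.879 for BIX01294 and 0.883 for DZNep. The crossed pairs, which share neither drug nor pup, gave 0.871 for BIX01294 pup1.8 with DZNep pupx17 and 0.876 for BIX01294 pupx17 with DZNep pup1.8. Lists of different drugs in 1 pup were therefore more alike than lists of 1 drug in different pups, by 0.00679 in the mean. This order was not tested, and it turned with LADs over 500 kb alone (-0.00219).

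The 2 drug lists were as close to each other as each was to untreated cells. Within pups the Jaccard index was 0.892 and 0.882 between BIX01294 and WT (pup1.8 and pupx17), and 0.887 and 0.890 between DZNep and WT. These ranges overlap that of the 2 drugs. TSA stood further off, with 0.811 and 0.801 against BIX01294 and 0.811 and 0.820 against DZNep. Every value with TSA lay below every value among BIX01294, DZNep and WT in both pups. The TSA lists are also the shortest, and the part of list length in these indices was not tested.

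Sharing rose with LAD length for both drugs. Of the bases in BIX01294 LADs of 100 to 250 kb, 71.3% in pup1.8 and 67.5% in pupx17 also lay in DZNep LADs of the same pup. For DZNep LADs of that length, 82.1% and 83.5% lay in BIX01294 LADs. LADs of 1000 kb or more shared 97.9% and 96.9% of their BIX01294 bases and 98.2% and 99.1% of their DZNep bases. In each length class and each pup the BIX01294 share was the lower. The BIX01294 lists were also the longer, and the part of list length in this order was not tested.

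**Figure D2:**
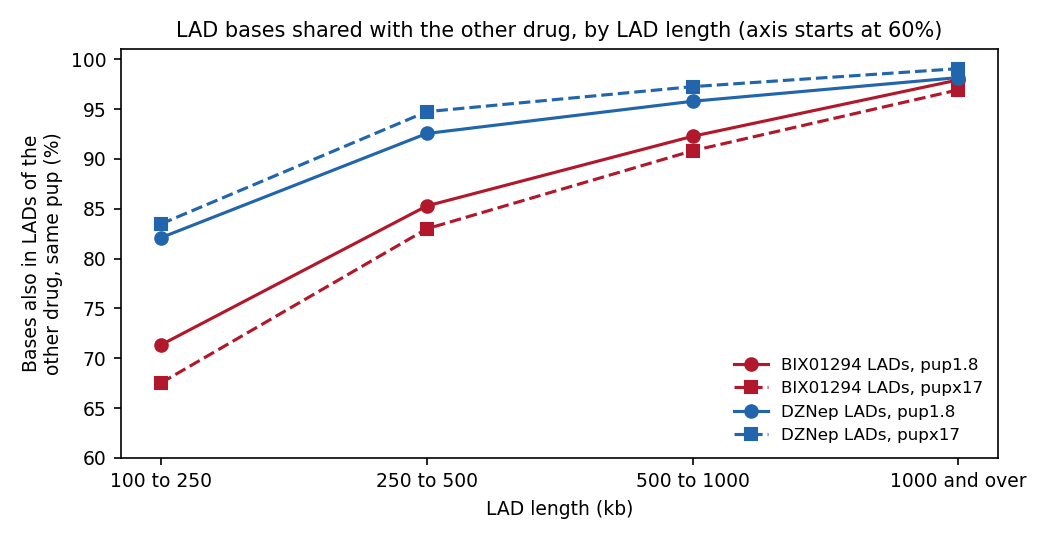
Share of LAD bases (%, axis from 60) that also lie in LADs of the other drug in the same pup, by LAD length in kb; red marks BIX01294 LADs and blue DZNep LADs, solid lines pup1.8 and dashed lines pupx17. The lines climb from 67.5% to 83.5% in the shortest class to 96.9% to 99.1% in the longest, and the blue lines lie above the red ones throughout.

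Whole LADs found under 1 drug alone were few and short. Of the BIX01294 LADs, 189 of 2154 (8.77%) in pup1.8 and 228 of 2139 (10.7%) in pupx17 shared no base with a DZNep LAD of the same pup. Of the DZNep LADs, 114 of 2132 (5.35%) in pup1.8 and 120 of 2239 (5.36%) in pupx17 shared none with BIX01294. Nearly all were short: 169 and 212 of the unshared BIX01294 LADs (pup1.8 and pupx17) and 105 and 119 of the unshared DZNep LADs were under 250 kb. No LAD of 1000 kb or more was unshared in either pup. Many of the unshared LADs were not empty in the other list. Intervals that the 100 kb limit had removed touched 64.6% (pup1.8) and 80.3% (pupx17) of the unshared BIX01294 LADs, and 71.1% and 85.0% of the unshared DZNep LADs. Such intervals covered 50% or more of fewer of them, 55 of 189 and 82 of 228 for BIX01294 and 48 of 114 and 65 of 120 for DZNep.

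The longest unshared LADs are given because they are the longest whole LADs found under 1 drug alone within a pup. The longest BIX01294 LAD of pup1.8 with no DZNep base was 563 kb at chr19:30943733-31506232, and 93.0% of it was LAD again under BIX01294 in pupx17, but so was 22.2% of it under DZNep in that pup. For BIX01294 in pupx17 it was 461 kb at chr3:147527755-147988397, of which 20.6% recurred under BIX01294 in pup1.8 and none under DZNep. The longest DZNep LAD of pup1.8 with no BIX01294 base was 589 kb at chr3:56167490-56755995, yet in pupx17 it was LAD under both drugs, for 96.7% of its length under DZNep and 61.2% under BIX01294. For DZNep in pupx17 it was 260 kb at chr5:102571879-102832124, and 59.3% recurred under DZNep in pup1.8 with none under BIX01294. Thus 2 of these 4 regions held no LAD base of the other drug in either pup, although each region held shorter deposited intervals of that drug in at least 1 pup. WT LADs (pup1.8 and pupx17) covered 67.7% and 69.4% of the chromosome 19 region and 0% and 18.7% of chr3:147527755-147988397. They covered 29.2% and 83.1% of chr3:56167490-56755995 and 0% and 89.0% of the chromosome 5 region.

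LADs that were continuous under 1 drug were at times broken under the other. In pup1.8, 255 BIX01294 LADs (11.8%) spanned 2 or more DZNep LADs, and 205 DZNep LADs (9.62%) spanned 2 or more BIX01294 LADs. In pupx17 these were 333 BIX01294 LADs (15.6%) and 170 DZNep LADs (7.59%). The most divided were a BIX01294 LAD of 5616 kb in pupx17, at chr10:99416301-105032407, which held 6 DZNep LADs, and a DZNep LAD of 7452 kb in pup1.8, at chr14:106924831-114376433, which held 5 BIX01294 LADs. In pup1.8 a BIX01294 LAD of 5948 kb at chr1:108695492-114643668 held 4 DZNep LADs. In pupx17 the DZNep LAD of 10142 kb at chr1:110039628-120181485, which overlaps that stretch of chromosome 1, held 4 BIX01294 LADs. Both drugs thus had LADs broken up under the other, the BIX01294 lists more often in each pup.

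LAD boundaries were kept to a similar degree in both directions. A boundary of the same type (a start or an end) lay within 25 kb in the other drug's list of the same pup for 56.1% (pup1.8) and 55.8% (pupx17) of BIX01294 boundaries. For DZNep boundaries the shares were 56.6% and 53.3%. The mean over both directions was 55.5% ± 1.25 (SD, n = 2 pups), against 55.0% ± 1.13 for BIX01294 with WT, 57.2% ± 1.04 for DZNep with WT, 41.8% ± 2.02 for BIX01294 with TSA and 44.7% ± 0.698 for DZNep with TSA. The drugs thus matched each other's boundaries about as often as those of untreated cells. Within 10 kb, 40.8% and 39.7% of DZNep boundaries were matched in BIX01294, and within 100 kb 75.7% and 71.7% were. Of the matched boundaries, 154 (6.38%) in pup1.8 and 175 (7.33%) in pupx17 lay at the same base.

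Boundaries matched within 25 kb had a median outward shift of BIX01294 against DZNep of 0 kb in pup1.8 and 0.103 kb in pupx17. The median absolute shift was 4.53 kb in pup1.8 and 3.84 kb in pupx17. Where the matched boundaries differed, the BIX01294 LAD reached further out at 1158 boundaries and the DZNep LAD at 1103 boundaries in pup1.8 (51.2% for BIX01294), and at 1211 and 1002 boundaries in pupx17 (54.7%). Of the 4264 DZNep boundaries of pup1.8, 1284 (30.1%) had a partner within 25 kb in all 3 other lists. Among these, BIX01294 reached further out in both pups at 317 boundaries, DZNep did so at 234, and at 561 the direction differed between the pups. These counts leave out any step over 25 kb. Deep edges, where 1 drug reached over 25 kb past the LAD of the other, numbered 634 for BIX01294 and 397 for DZNep in pup1.8, and 767 and 293 in pupx17.

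LADs that met exactly 1 LAD of the other drug, and the reverse, gave 1342 pairs in pup1.8 and 1310 pairs in pupx17. BIX01294 was the longer in 789 and DZNep in 551 of them in pup1.8, and BIX01294 in 816 and DZNep in 490 in pupx17. The median BIX01294 minus DZNep length was 4.87 kb in pup1.8 (quartiles -14.7 and 36.0 kb) and 6.56 kb in pupx17 (quartiles -6.59 and 47.4 kb). Both signs were common in each pup.

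The bases called under 1 drug alone lay mostly at LAD edges. BIX01294 LAD bases outside DZNep LADs summed to 107 Mb in pup1.8 and 129 Mb in pupx17, and DZNep bases outside BIX01294 LADs to 65.4 Mb and 50.2 Mb. Edges over 25 kb deep, joined to a LAD of the other drug on 1 side, held 47.3% and 50.03% of these bases for BIX01294 and 42.7% and 39.7% for DZNep. Whole LADs held 29.4% and 26.8% for BIX01294 and 26.9% and 31.8% for DZNep. Stretches between 2 LADs of the other drug held 14.9% and 16.5% for BIX01294 and 18.1% and 15.2% for DZNep. Edges of up to 25 kb held 8.40% and 6.73% for BIX01294 and 12.3% and 13.3% for DZNep. In both pups deep edges took a larger share of the BIX01294 bases and shallow edges a larger share of the DZNep bases. Of the net excess of BIX01294, deep edges gave 22.5 Mb of 41.1 Mb in pup1.8 and 44.7 Mb of 78.9 Mb in pupx17, whole LADs gave 13.7 Mb and 18.6 Mb, filled stretches 4.03 Mb and 13.6 Mb, and shallow edges 0.906 Mb and 2.01 Mb.

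**Figure D3:**
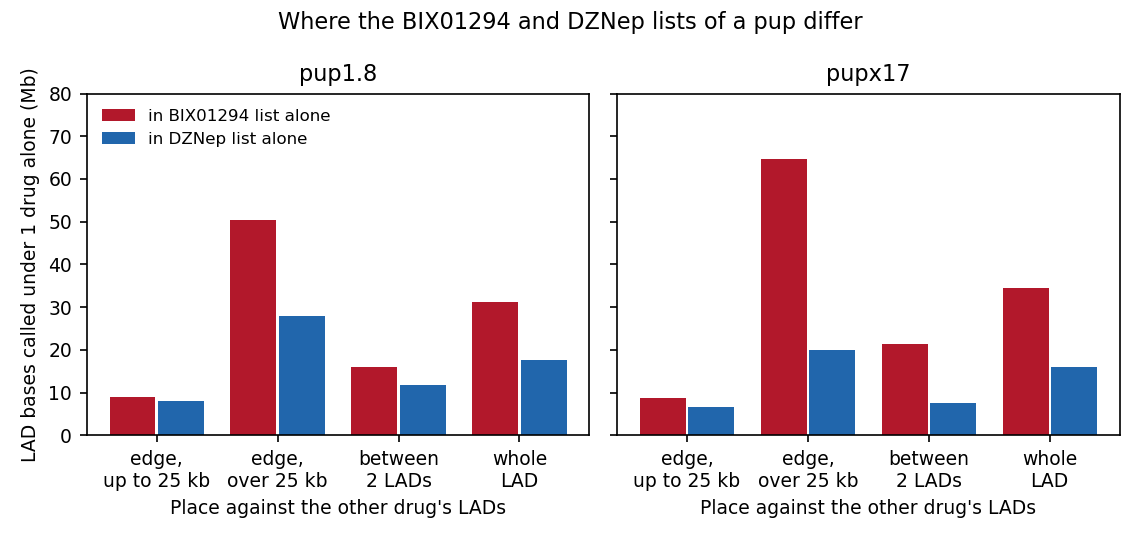
LAD bases (Mb, from 0) called under 1 drug alone within each pup, by their place against the LADs of the other drug; red bars are bases in the BIX01294 list alone and blue bars those in the DZNep list alone. The red bar is the taller in each place and pup, from 8.95 Mb against 8.04 Mb at shallow edges of pup1.8 to 64.6 Mb against 19.9 Mb at deep edges of pupx17.

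A difference found in 1 pup mostly did not recur in the other. Of the 107 Mb that were LAD under BIX01294 and not under DZNep in pup1.8, 27.4 Mb (25.8%) had the same state in pupx17, 8.61 Mb (8.08%) had the opposite state, 38.8 Mb were LAD under both drugs and 31.6 Mb under neither. Of the 65.4 Mb that were LAD under DZNep and not under BIX01294 in pup1.8, 6.58 Mb (10.1%) had the same state in pupx17 and 12.7 Mb (19.4%) had the opposite one. Read from pupx17, 21.3% of the BIX01294 difference recurred and 9.83% turned, and 13.1% of the DZNep difference recurred and 17.2% turned. BIX01294 bases thus recurred more often than they turned, and DZNep bases turned more often than they recurred, in both readings. The BIX01294 lists are the longer in both pups, and the part of list length in this recurrence was not tested.

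Of 1647 Mb called in at least 1 of the 4 lists, 1306 Mb (79.3%) were called in all 4. Bases called in both BIX01294 lists and in neither DZNep list (BIX01294-only) summed to 27.4 Mb, and bases in both DZNep lists and in neither BIX01294 list (DZNep-only) to 6.58 Mb. The same measure for the pups gave 14.9 Mb in both lists of pup1.8 and neither of pupx17, and 30.4 Mb in both lists of pupx17 and neither of pup1.8. The crossed pairs, which no factor of the design separates, gave 12.7 Mb (BIX01294 pupx17 with DZNep pup1.8) and 8.61 Mb (BIX01294 pup1.8 with DZNep pupx17). BIX01294-only bases were therefore fewer than those of pupx17, and DZNep-only bases were the fewest of the 6 patterns with 2 lists. The 4 lists can be split in 6 ways, so no two-sided exact permutation test over these lists can give a p below 0.333.

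These sums depend on every list and on list length. Without BIX01294 pup1.8 or pupx17 the BIX01294-only sum was 77.2 or 59.1 Mb, and without DZNep pup1.8 or pupx17 it was 66.6 or 66.3 Mb, because fewer lists then had to meet the condition. The DZNep-only sum was 20.6 or 38.1 Mb without BIX01294 pup1.8 or pupx17, and 27.6 or 21.2 Mb without DZNep pup1.8 or pupx17. When the shortest LADs of the longer list were dropped until both lists of a pup had 1 total length, the sums were 20.5 Mb for BIX01294-only and 21.2 Mb for DZNep-only. Setting the totals equal narrows the gap between these sums by construction, so they are given as values only.

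**Figure D4:**
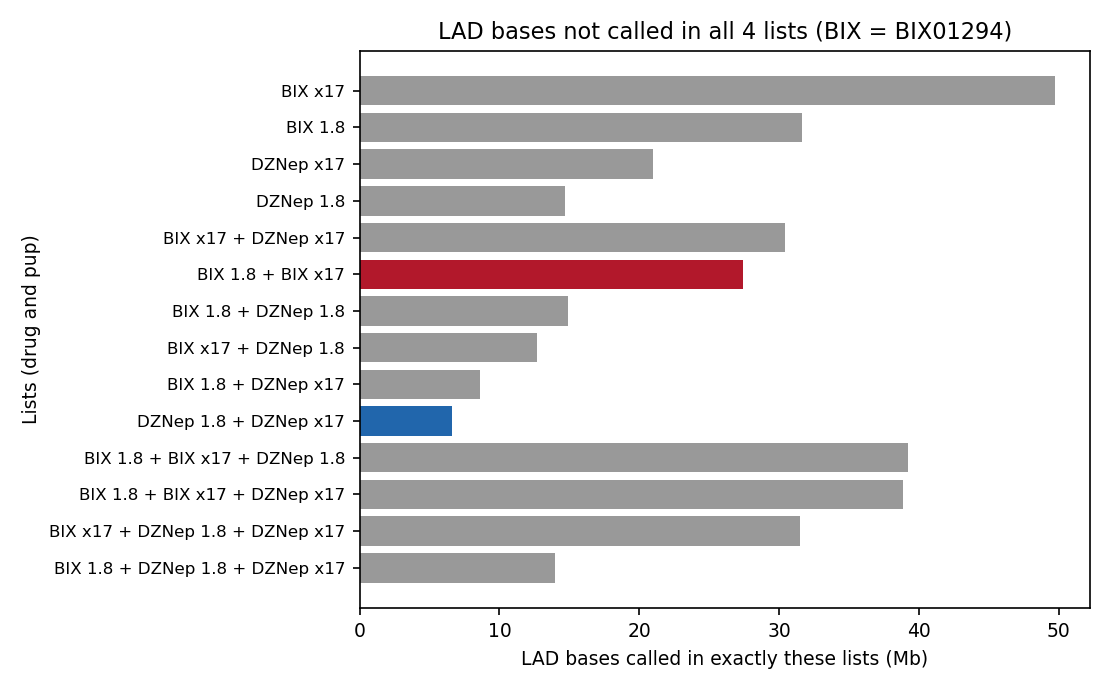
LAD bases (Mb, from 0) called in exactly the lists named at the left, for every combination but all 4 lists together; red marks BIX01294 in both pups and blue DZNep in both pups. The red bar (27.4 Mb) is a little shorter than that of both pupx17 lists (30.4 Mb), and the blue bar (6.58 Mb) is the shortest of all 14.

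Cut into segments of at least 25 kb with constant membership, the 4 lists gave 6385 segments called in at least 1 list. BIX01294-only segments were 351 of these (5.5%), and DZNep-only segments were 82 (1.28%). Both lists of pup1.8 and neither of pupx17 gave 178 segments, and the reverse gave 325. The crossed pairs gave 150 (BIX01294 pupx17 with DZNep pup1.8) and 96 (BIX01294 pup1.8 with DZNep pupx17). The BIX01294-only segments had a median length of 49.6 kb and the DZNep-only segments of 41.8 kb. By place, 209 BIX01294-only segments (59.5%) had a DZNep LAD of either pup within 25 kb on 1 side, 91 (25.9%) had them on both sides, and 51 (14.5%) stood more than 25 kb from any DZNep LAD. Among DZNep-only segments 35 (42.7%) had a BIX01294 LAD on 1 side, 30 (36.6%) on both and 17 (20.7%) stood apart. Segments that stood apart were the longest class for both drugs, with medians of 108 kb and 107 kb. Such a segment is the overlap of LADs that each exceed 100 kb, while the others need only 25 kb. The processing thus favours this order, and nothing is read from it.

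Untreated cells of the same pups gave no single side to these segments. Of the BIX01294-only bases, 22.2% were LAD in both WT lists, 37.2% in WT pup1.8 alone, 15.3% in WT pupx17 alone and 25.2% in neither. Of the DZNep-only bases, 18.997% were LAD in both WT lists, 28.8% in WT pup1.8 alone, 16.4% in WT pupx17 alone and 35.8% in neither. The shares in neither WT list are not stable. At equal list length they were 25.5% for BIX01294 and 17.2% for DZNep, the opposite order. Without BIX01294 pup1.8 or pupx17 they were 45.1% or 41.6% for BIX01294-only and 19.4% or 11.5% for DZNep-only bases. Without DZNep pup1.8 or pupx17 they were 15.1% or 15.2% for BIX01294-only and 48.7% or 46.9% for DZNep-only bases. Bases in both WT lists are LADs of untreated cells missing under the other drug, and bases in neither are LADs present under the named drug and not in untreated cells of these pups. Both kinds occurred for each drug, and the largest group was called in 1 WT list. The same shares were not computed for other segments, so nothing particular to the drug-only ones is read from them. As segments, 182 of the 351 BIX01294-only (51.9%) and 39 of the 82 DZNep-only segments (47.6%) were covered by 50% or more in just 1 WT list. Within pups, the share of differing bases that were LAD in WT was near equal for the drugs: 59.0% for BIX01294 and 60.5% for DZNep in pup1.8, and 37.5% and 35.8% in pupx17. The WT list was the longer in pup1.8, and the part of its length in this share was not tested.

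Part of the drug-only sequence had been called in the other drug before the length limit. Deposited intervals of DZNep covered 14.3% (pup1.8) and 20.9% (pupx17) of the BIX01294-only bases, and 25.8% in either. Deposited BIX01294 intervals covered 17.001% and 20.015% of the DZNep-only bases, and 25.2% in either. TSA LADs covered 36.3% and 27.6% of the BIX01294-only bases and 27.7% and 22.0% of the DZNep-only bases.

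The 5 longest BIX01294-only segments, shown because they are the largest LAD stretches that separate the drugs in both pups, ran from 232 to 310 kb. The longest was 310 kb at chr1:77016024-77326114, wholly LAD in WT pup1.8 and not at all in WT pupx17, with no deposited DZNep interval in either pup, and TSA was LAD over 60.4% of it in pup1.8 and none in pupx17. In pup1.8 it was a whole BIX01294 LAD, and in pupx17 it lay in one of 913 kb. The next, 262 kb at chr4:53575944-53837660, stood apart from any DZNep LAD, and 99.0% of it was LAD in WT pup1.8 with none in WT pupx17 or either TSA list. A segment of 261 kb at chr16:77576623-77837853 was LAD over 75.1% in WT pup1.8 and 70.9% in WT pupx17, so here DZNep was the drug that departed from untreated cells, although short deposited DZNep intervals covered 10.2% and 35.8%. TSA was LAD over 49.5% of it in pup1.8 and 4.35% in pupx17. A segment of 256 kb at chr16:35103999-35360360 was LAD in neither WT list, so here BIX01294 departed, and it was also LAD under TSA over 97.2% in pup1.8 and 39.8% in pupx17. Short DZNep intervals covered 36.2% of it in pupx17 and none in pup1.8. The last, 232 kb at chr8:110975431-111207708, was wholly LAD in WT pup1.8 and over 41.8% in WT pupx17, and short deposited DZNep intervals covered 31.8% and 29.0% of it. TSA was LAD over all of it in pup1.8 and over 40.9% in pupx17.

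The 5 longest DZNep-only segments ran from 130 to 171 kb and all stood apart from any BIX01294 LAD. The longest, 171 kb at chr16:87054096-87224707, was LAD in no WT or TSA list of either pup and had no deposited BIX01294 interval. It lay in a DZNep LAD of 172 kb in pup1.8 and of 189 kb in pupx17. At chr10:44621900-44782341 (160 kb) WT was LAD over 100% in pup1.8 and 87.1% in pupx17, TSA had no LAD, and short BIX01294 intervals covered 32.8% and 47.3%. At chr8:14680135-14836303 (156 kb) WT was LAD over 100% and 89.3% and TSA over 99.1% and 100%, so BIX01294 was the only one of WT, TSA, DZNep and BIX01294 without a LAD there, although short deposited intervals covered 53.9% under BIX01294 in pupx17. At chr5:102597816-102752208 (154 kb) WT was LAD in pupx17 alone, short BIX01294 intervals covered 24.6% in pup1.8, and this segment is part of the 260 kb LAD of chromosome 5 named above. At chr10:30360382-30490050 (130 kb) no WT or TSA list had a LAD, and short BIX01294 intervals covered 51.5% in pupx17. Of the 10 segments named for the drugs, 3 had no LAD base in either WT list (1 under BIX01294 and 2 under DZNep), as did 44 of all 351 BIX01294-only segments (12.5%) and 13 of all 82 DZNep-only segments (15.9%).

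Some LADs had nearby borders in all 4 lists. Of the 2132 DZNep LADs of pup1.8, 188 (8.82%) had both borders within 25 kb in each of the other lists, with a median length of 299 kb. The longest spanned 4515 kb at chr7:20545761-25061018 in DZNep pup1.8, and its length in the other lists was 4547 kb (BIX01294 pup1.8), 4493 kb (BIX01294 pupx17) and 4498 kb (DZNep pupx17). The second was 4470 kb at chr4:89200270-93670761, with 4466 kb, 4468 kb and 4468 kb in the same order. The borders were matched to the DZNep list of pup1.8, so other lists can lie further apart: the chromosome 7 LAD ended at base 25077817 under BIX01294 in pup1.8 and at base 25045971 in pupx17.

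Each autosome had more LAD under BIX01294 than under DZNep in both pups. The difference in coverage, as a share of the span between the first and last called base of the chromosome, ranged from 0.504 to 4.67 percentage points in pup1.8 and from 0.991 to 6.25 points in pupx17. On chromosome 19 LADs covered 56.5% and 57.0% under BIX01294 (pup1.8 and pupx17) and 51.9% and 50.8% under DZNep, the largest mean difference of the 19 at 5.46 ± 1.12 points (SD, n = 2 pups). On chromosome 7 they covered 65.7% and 66.7% under BIX01294 and 65.0% and 65.7% under DZNep, the smallest at 0.860 ± 0.185 points. Chromosome 19 also had the lowest mean Jaccard index between the drugs, 0.845, and chromosome 7 the highest, 0.928. Chromosomes of 1 list share its library, so the 19 are not independent. At equal list length, 3 of the 19 chromosomes had more BIX01294 LAD in both pups. Equal totals prevent all 19 from favouring 1 drug, and the rest of the fall was not tested.

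With the lists at their own lengths, BIX01294-only bases exceeded DZNep-only bases on all 19 chromosomes, which cannot hold at equal list length, where the DZNep-only sum was the larger. Chromosome 19 held 12 BIX01294-only and 0 DZNep-only segments, and chromosome 7 held 19 and 3. Along the chromosomes, cut into 3 equal lengths from the first called base, the first length held 30.5% of BIX01294-only bases and 40.1% of DZNep-only bases, against 35.6% of the bases called in all 4 lists. The last length held 34.7%, 28.4% and 31.6% in the same order. These shares were not tested.

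**Figure D5:**
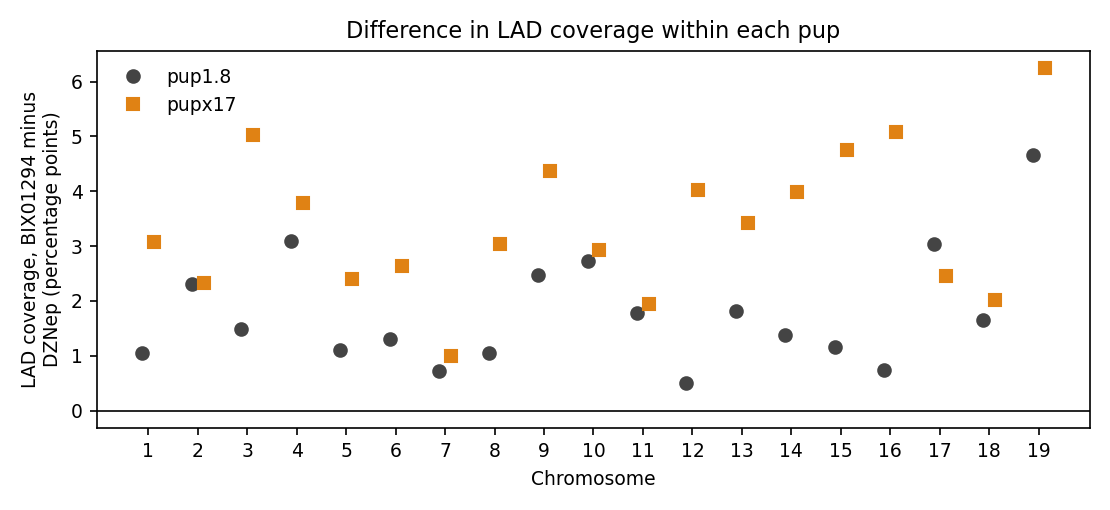
Difference in LAD coverage, BIX01294 minus DZNep, in percentage points of each chromosome's span, for pup1.8 (circles) and pupx17 (squares). All 38 points lie above 0, and chromosome 19 is the highest in each pup, at 4.67 and 6.25 points.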

How the data were processed

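Primary MEFs carried Dam-LmnB1 or Dam alone, and their libraries were sequenced in pairs. The submitters' processing notes give the build as mm9, and the aligner is not given in the sources used here. The authors segmented the ratio of Dam-LmnB1 to Dam-only reads with LADetector. The deposited lists, 1 per pair with no pooling, give only interval start and end. The joining and length limit of the published methods were absent from them and were applied here: neighbours with a gap of less than 25 kb were merged, intervals of 100 kb or less dropped, and chromosomes 1 to 19 used. Each list names both libraries of its pair and was assigned to the experiment library. Lists were compared within a pup, which is the pairing in the labels. In bins of 1 Mb the deviations of same-pup lists from their drug means had r = 0.297 (2482 bins).

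The comparison, regions and measures were chosen with earlier results of these data known. Regions are named by length: the 5 longest segments of each drug, the longest unshared and most divided LAD of each drug and pup, the 2 longest DZNep pup1.8 LADs with both borders within 25 kb in each other list, and the chromosomes with the largest and smallest coverage difference. Alternatives were the lists as deposited, limits of 200 and 500 kb, joining under 50 kb, adding X, equal list length, leaving out each list, no replicate block, other boundary distances and other segment lengths. The interval arithmetic was checked on simulated data. Python 3.11.15, numpy 2.4.6 and matplotlib 3.10.9 were used.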

Additional observations from a re-analysis of the deposited data

How the results depend on the processing

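The lists hold no reads, so depth could not be weighed, and 2 pups limit every comparison. Over 180 alternatives to 16 results, the result stayed in 104, moved in 68 and turned sign in 8. Shares, sums, counts and indices cannot turn sign, so all 8 fell on results that are differences. Unless stated, the cause was not tested.

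The difference in LAD number turned from -39 to 200.5 with the lists as deposited and to 28 and 71 with minimum lengths of 200 and 500 kb. It was -483.5 at equal list length, where the shortest LADs of the longer list are dropped, and ran from -100 to 22 when each list was left out. For differences within a pup, leaving out a list leaves only the other pup, so these values restate the pup differences. The total length difference was 41.1 to 78.9 Mb without each list and -0.0360 Mb at equal list length by construction. The median difference was -37.8 kb with LADs over 500 kb and 169 kb at equal list length, and ran from 27.1 to 38.4 kb without each list. As deposited it was 1.66 kb, opposite in sign between the pups.

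Without the replicate block, over all 4 pairs of a BIX01294 and a DZNep list, the Jaccard index was 0.881 and 53.98% of BIX01294 boundaries were matched. The 3 differences kept their values, with exact permutation p of 1 for number and 0.333 for both lengths.

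The Jaccard index was 0.8767 as deposited, 0.8768 over 200 kb, 0.845 over 500 kb, 0.891 with X and 0.878 at equal length. The share of BIX01294 bases in DZNep LADs was 91.2% over 200 kb, 88.4% over 500 kb and 93.487% at equal length, and that of DZNep bases in BIX01294 LADs was 95.027% as deposited, 95.029% over 500 kb and 93.484% at equal length. BIX01294 boundaries were matched for 52.2% as deposited, 53.4% over 200 kb, 48.9% over 500 kb, 49.6% with joining under 50 kb, 55.7% with X and 58.8% at equal length, and DZNep boundaries for 48.2% with joining under 50 kb and 45.9% at equal length. Within 10, 50 and 100 kb they were matched for 40.98%, 66.2% and 75.04% (BIX01294) and 40.3%, 65.03% and 73.7% (DZNep).

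DZNep-only bases rose to 21.2 Mb at equal length, of which 17.2% were LAD in neither WT list. BIX01294-only segments numbered 175 over 500 kb, 286 at equal length, 979 at any length, 174 from 50 kb and 78 from 100 kb. DZNep-only segments numbered 48 as deposited, 34 over 500 kb, 197 at equal length, 421 at any length, 32 from 50 kb and 11 from 100 kb. Without each list the BIX01294-only sum ran from 59.1 to 77.2 Mb in 656 to 873 segments, and the DZNep-only sum from 20.6 to 38.1 Mb in 256 to 453 segments, since fewer lists had to meet the condition. The shares in neither WT list then ran from 15.1% to 45.1% for BIX01294 and from 11.5% to 48.7% for DZNep.

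The same-pup minus same-drug Jaccard index was 0.00959 as deposited, 0.00412 over 200 kb, -0.00219 over 500 kb, 0.00976 with joining under 50 kb, 0.00260 at equal length and 0.00423 to 0.00935 without each list. At equal length 3 chromosomes had more BIX01294 LAD in both pups.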

Other observations

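The X chromosome was left out of the comparison above and did not share the direction of the autosomes. BIX01294 LADs covered 134 Mb of X in pup1.8 and 137 Mb in pupx17, and DZNep LADs covered 134 Mb in each. BIX01294 minus DZNep was -0.482 Mb in pup1.8 and 2.80 Mb in pupx17, opposite in sign, where all 19 autosomes had more LAD under BIX01294 in both pups. X held 0.941 Mb of BIX01294-only and 1.02 Mb of DZNep-only sequence, in 10 and 12 segments. The Jaccard index between the drugs on X was 0.927 in pup1.8 and 0.924 in pupx17, near the highest autosome, chromosome 7. The lists of 1 drug in both pups had 0.928 (BIX01294) and 0.918 (DZNep) on X. LADs cover 81.7% to 83.8% of X in these 4 lists, more than of any autosome in them, and the part of that coverage in the values was not tested.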
